A study of Mus musculus with 12 samples.

Results

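Gene expression in aortic valve leaflets of SMKO mice was set against that of CTRL mice. In the study as it is known, SMKO stands for loss of fibulin-4, the product of Efemp2, from smooth muscle cells. The comparison asks which transcripts of the valve differ when the gene is lost from that lineage. It rests on 6 of the 12 libraries of the series, 3 SMKO and 3 CTRL, and on the 6296 of 41709 listed genes that had enough counts to be tested. DKO (3 libraries, deletion in both endothelial and smooth muscle cells) was used as the genotype that shares the smooth muscle deletion. The fourth, ECKO (endothelial deletion), entered the statistical model and 1 comparison of single libraries. All mice were 2 months old and of the mixed strain background C57BL/6J;129SvEv. The labels give the 4 codes and no more: the alleles that CTRL mice carry, the Cre line behind each deletion and the animal behind each library are not stated in the labels. The design text calls the libraries biological triplicates, and every p-value measures the spread between these libraries.

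Fibulin-4 is a secreted glycoprotein that binds lysyl oxidase and tropoelastin and brings them together on fibrillin microfibrils, where elastin is cross-linked into elastic fibres. In the arterial wall smooth muscle cells make most of these fibres, and mice without fibulin-4 in that lineage develop aneurysms of the ascending aorta. A valve leaflet is built differently: a sheet of endothelial cells covers interstitial cells, which lay down layers of collagen, proteoglycan and elastin. Leaflets were cut from stained sections of 20 μm by laser microdissection, and the amplified cDNA was sequenced on a MiSeq as pairs of 75-base reads. Levels below are CPM, counts divided by library size after TMM scaling, which sets the libraries to a common composition. Since a leaflet is a mixture, fewer cells of a type and less RNA per cell cannot be told apart.

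Markers of the labelled tissue were present in all 6 libraries. Those of interstitial cells summed to 27694, 42232 and 18592 CPM in SMKO 1, 2 and 3, against 29239.6, 29928 and 33522 CPM in CTRL 1, 2 and 3. Endothelial markers summed to 2147, 1838 and 2760.5 CPM in SMKO, against 1746, 1802 and 2058 CPM in CTRL. Differentiated smooth muscle was close to absent from both groups. Myh11, the smooth muscle myosin heavy chain, had 1 count in SMKO 2, 1 in CTRL 2 and none in the other 4 libraries, and Cnn1, which encodes calponin, had none in any of the 6. Acta2, the smooth muscle actin that activated interstitial cells also make, stood at 117, 154 and 110.4 CPM in SMKO, against 169, 148 and 186 CPM in CTRL.

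Depth was low and uneven. SMKO 1, 2 and 3 held 530233, 263589 and 74827 counts, and CTRL 1, 2 and 3 held 576910, 561166 and 159857. A single count therefore weighed 1.70, 5.14 and 13.8 CPM in SMKO, against 1.46, 1.55 and 7.43 CPM in CTRL. Mitochondrially encoded genes took 15.1, 24.1 and 28.5% of counts in SMKO, against 10.5, 11.2 and 26.7% in CTRL. Counts of Y-linked genes were 89, 1 and 0 in SMKO, against 0, 0 and 30 in CTRL, and Xist had none in any library. SMKO 2 correlated better with DKO than with its own group. Over the tested genes its log2 CPM values had a Pearson correlation of 0.870, 0.883 and 0.843 with DKO 1, 2 and 3, of 0.828 with SMKO 1 and 0.643 with the shallow SMKO 3, and of 0.822, 0.852 and 0.778 with CTRL 1, 2 and 3. SMKO 1 and SMKO 3 correlated at 0.732, below the 0.828 of SMKO 1 and SMKO 2. On this measure SMKO 3, the shallowest library, lay furthest from its group. These are correlations across genes within pairs of libraries, and depth enters each of them. SMKO 1 correlated at 0.856, 0.929 and 0.917 with ECKO 1, 2 and 3, against 0.850, 0.861 and 0.869 with DKO 1, 2 and 3. With CTRL 1, 2 and 3 it correlated at 0.906, 0.915 and 0.819. Fold changes that SMKO 2 carries are given with and without it.

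Efemp2 (ENSMUSG00000024909), the targeted gene, was nearly absent from the SMKO libraries. It had 4, 0 and 0 counts in SMKO 1, 2 and 3, against 58, 23 and 9 counts in CTRL 1, 2 and 3. In CPM this is 6.81, 0 and 0 in SMKO, against 84.5, 35.5 and 66.9 in CTRL, and the groups did not overlap. At the mean CTRL level the same SMKO libraries would have held 36.6, 12.1 and 4.51 counts. The absence in SMKO 3 thus carries little weight, since 3 counts, the upper limit that a count of 0 allows, would be 41.4 CPM there and 15.4 CPM in SMKO 2. Summed over each group, the SMKO libraries had 0.0763 of the CTRL level (exact 95% interval 0.0203 to 0.202, counting error only). The log2 fold change was -3.68 ± 0.69 (SE), with an adjusted p of 0.0612 in edgeR's quasi-likelihood test, which misses the threshold of 0.05. An exact permutation test on the same log2 CPM values, two-sided, gave p = 0.1, the smallest that 3 libraries against 3 can give. The call depended on the processing: in edgeR the adjusted p was 0.0325 without CTRL 2, and 5.17e-05 when genes with low counts were kept in the fit. Other alternatives gave larger values, among them 0.9997 in edgeR without CTRL 1, 0.255 in DESeq2 and 0.624 in limma-voom. Efemp2 shares an exon region with Mus81 on the opposite strand, and the deposited counts carry no strand, so the few remaining counts cannot be assigned with certainty to fibulin-4.

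Across the transcriptome, no gene passed the test between SMKO and CTRL. At an adjusted p under 0.05 edgeR called 0 of 6296 genes (0%), DESeq2 0, and limma-voom 0 with and without library weights. At an unadjusted p under 0.05 edgeR listed 345 genes (5.48%), where 315 are expected by chance, 163 of them higher in SMKO (2.59%) and 182 lower (2.89%). DESeq2 listed 200 at that level, limma-voom 446, and limma-voom with library weights 601. All 3 SMKO libraries lay above all 3 CTRL libraries for 259 genes (4.11%) and below them for 400 (6.35%), together 10.5% of genes. For 3 libraries against 3 with exchangeable labels, separation in either direction has a probability of 0.1, so the joint share is near that of chance. The scale decides much of the split between higher and lower. In the authors' deposited TPM, which are not rescaled for composition, the SMKO libraries lay above all CTRL libraries for 18 genes and below them for 355, of which 11 and 144 were separate the same way in CPM. Below, groups called separate are separate in TMM-scaled CPM. Of 40 such genes described, 23 were separate in TPM too (6 of 16 higher and 17 of 24 lower), and those that overlapped in TPM were Fmnl2, Csf2ra, Ppp6r1, LTO1, C1qb, C1qa, Cd74, Ltbp3, Fmod and Col4a1 on the higher side and Fos, Hadh, Sash1, Smad6, Hey1, Notch3 and Pdia6 on the lower side. Leaving out SMKO 2 did not produce calls: 0 genes passed, the smallest adjusted p was 0.426, and 401 genes (6.37%) had an unadjusted p under 0.05, 190 higher (3.02%) and 211 lower (3.35%). The precision sets what could have been seen. The median standard error of a log2 fold change was 0.48 among genes with the lowest counts, 0.37 among those with middling counts and 0.29 among those with the highest counts, when the tested genes were split into 3 equal sets. The genes described next are therefore those nearest to a call, with their values, and none of them is shown to have changed.

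**Figure D1:**
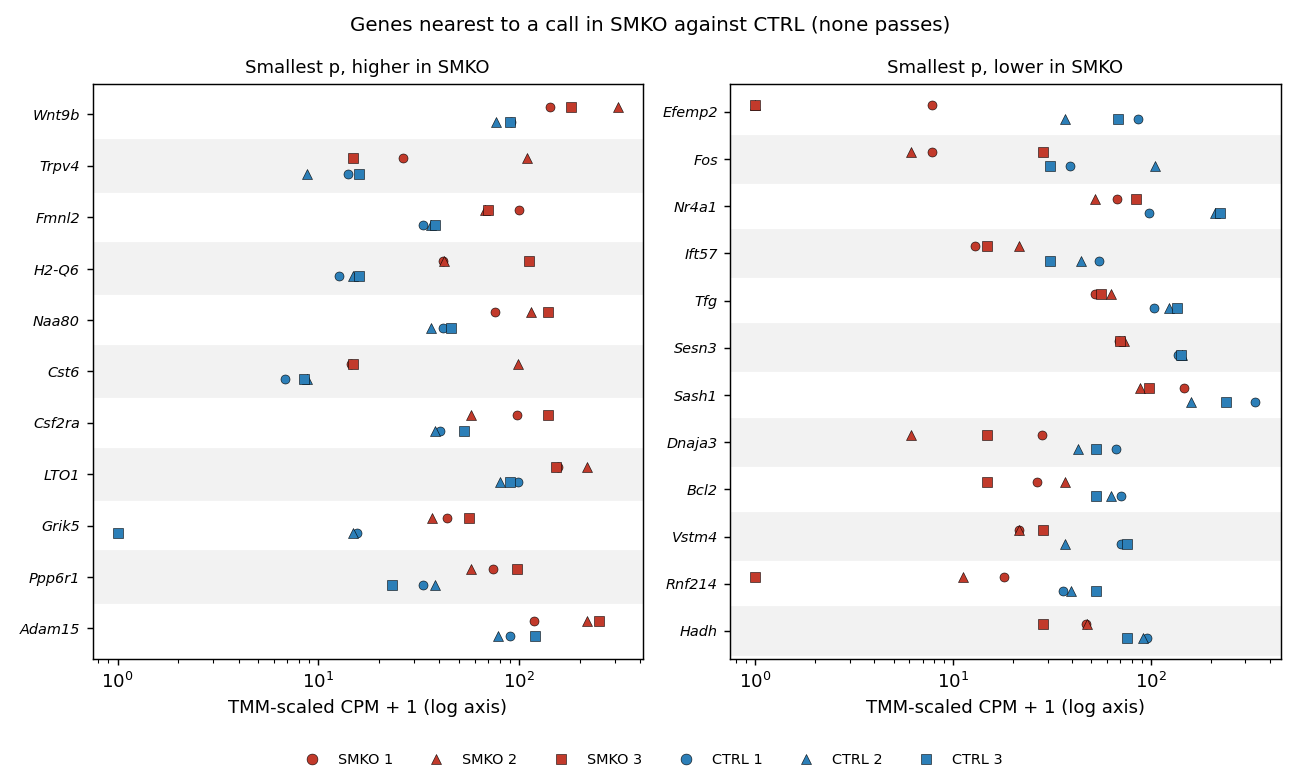
Levels of genes among the 12 with the smallest p on each side, higher in SMKO on the left and lower on the right; each point is 1 library, in TMM-scaled CPM plus 1 on a log axis, with SMKO in red above CTRL in blue for each gene. SMKO and CTRL points are separate for all genes shown except Trpv4 and Adam15, and none of them passes the test.

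On the higher side the smallest p belonged to Wnt9b, a secreted Wnt ligand that valve endothelium makes in the developing heart. Wnt9b stood at 141, 308 and 179 CPM in SMKO 1, 2 and 3, against 90.4, 75.7 and 89.2 CPM in CTRL. The SMKO libraries all lay above the CTRL libraries, and the highest was SMKO 2. The log2 fold change was 1.29 ± 0.29 (SE, adjusted p = 0.246), and 0.86 without SMKO 2. The DKO libraries, at 349.6, 269 and 282 CPM, all lay above SMKO 1 and 3. In TPM, Wnt9b had 62.5, 70.2 and 58.6 TPM in SMKO, against 46.8, 37.1 and 23.9 TPM in CTRL, again without overlap, and SMKO 2 stood closer to SMKO 1 and 3. Trpv4, a calcium channel opened by stretch and osmotic change, depended more on that library. It stood at 25.5, 108 and 13.8 CPM in SMKO, against 13.1, 7.73 and 14.9 CPM in CTRL, with a log2 fold change of 2.11 ± 0.55 that was 1.10 without SMKO 2. SMKO 3 lay among the CTRL values. Cst6, an inhibitor of cysteine proteases, had the same shape, at 13.6, 97.6 and 13.8 CPM in SMKO, against 5.83, 7.73 and 7.43 CPM in CTRL, where a single count in CTRL 3 is 7.43 CPM. Its log2 fold change of 2.45 was 0.98 without SMKO 2.

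Other genes on the higher side did not rest on SMKO 2. Fmnl2, a formin that elongates actin filaments at the cell edge, stood at 98.7, 66.8 and 69.0 CPM in SMKO, against 32.1, 35.5 and 37.1 CPM in CTRL (log2 fold change 1.29 ± 0.34, adjusted p = 0.703, 1.43 without SMKO 2). The groups were separate in CPM and overlapped in TPM, at 35.0, 12.2 and 18.1 TPM in SMKO, against 13.3, 14.0 and 7.997 TPM in CTRL. DKO libraries had 27.2, 19.9 and 37.3 CPM, close to or below the CTRL values, and the DKO over SMKO log2 fold change was -1.65 ± 0.37 (adjusted p = 0.235). That difference did pass in other fits, at an adjusted p of 0.014 under limma-voom with library weights and of 0.0332 in edgeR with low-count genes kept. Csf2ra, a subunit of the receptor for granulocyte-macrophage colony-stimulating factor, stood at 97.0, 56.5 and 138 CPM in SMKO, against 39.3, 37.1 and 52.0 CPM in CTRL. Ppp6r1, a regulatory subunit of protein phosphatase 6, stood at 73.2, 56.5 and 96.6 CPM in SMKO, against 32.1, 37.1 and 22.3 CPM in CTRL. Both were separate between the groups with adjusted p values of 0.703 and 0.72.

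For 3 further genes of the higher set the source of the reads is uncertain. H2-Q6, a class I histocompatibility gene with near-identical neighbours between which reads may be split, stood at 40.8, 41.1 and 110.4 CPM in SMKO, against 11.7, 13.9 and 14.9 CPM in CTRL. Naa80, known from human cells to acetylate the amino terminus of actin, stood at 74.9, 113 and 138 CPM in SMKO, against 40.8, 35.5 and 44.6 CPM in CTRL, and shares exon regions with Hyal1 and Hyal3 on its own strand. LTO1, known from yeast and human cells as part of a complex that loads an iron-sulfur cluster onto a ribosome recycling factor, stood at 155, 216 and 152 CPM in SMKO, against 97.6, 78.8 and 89.2 CPM in CTRL, and overlaps Ccnd1 on the opposite strand. All 3 were separate between the groups. Grik5, a kainate receptor subunit, stood at 42.5, 35.9 and 55.2 CPM in SMKO, against 14.6, 13.9 and 0 CPM in CTRL, where the 0 of CTRL 3 allows up to 22.3 CPM. Adam15, a membrane-bound metalloproteinase, stood at 117, 216 and 248 CPM in SMKO, against 88.9, 77.3 and 119 CPM in CTRL, and SMKO 1 lay just under CTRL 3.

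On the lower side, behind Efemp2, stood Fos and Nr4a1, which belong to the immediate early genes described further on. Sesn3, a stress-induced sestrin that restrains mTOR complex signalling, was even within each group. It had 68.1, 71.9 and 69.0 CPM in SMKO, against 136, 142 and 141 CPM in CTRL (log2 fold change -1.003 ± 0.29, adjusted p = 0.703, -1.02 without SMKO 2). The groups were separate, and DKO, at 77.2, 77.7 and 74.6 CPM, lay near SMKO. Bcl2, which blocks the mitochondrial path to apoptosis, stood at 25.5, 35.9 and 13.8 CPM in SMKO, against 70.0, 61.8 and 52.0 CPM in CTRL (-1.22 ± 0.38, adjusted p = 0.779). Ift57, a subunit of the transport complex that builds primary cilia, stood at 11.9, 20.5 and 13.8 CPM in SMKO, against 53.9, 43.3 and 29.7 CPM in CTRL (-1.65 ± 0.46, adjusted p = 0.703). Both were lower in every SMKO library than in any CTRL library, at counts low enough that SMKO 3 rests on 1 count for each. Vstm4, a membrane protein of the immunoglobulin superfamily, stood at 20.4, 20.5 and 27.6 CPM in SMKO, against 70.0, 35.5 and 74.3 CPM in CTRL. Hadh, an enzyme of mitochondrial fatty acid oxidation, stood at 45.9, 46.2 and 27.6 CPM in SMKO, against 94.7, 89.6 and 74.3 CPM in CTRL.

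Sash1, a scaffold protein found in endothelium, and Tfg, which works where vesicles leave the endoplasmic reticulum, completed the set of separate groups without known overlaps. Sash1 stood at 146, 87.3 and 96.6 CPM in SMKO, against 337, 159 and 238 CPM in CTRL, and Tfg at 51.0, 61.6 and 55.2 CPM in SMKO, against 102, 122 and 134 CPM in CTRL. For Sash1 the DKO libraries, at 341, 291 and 178 CPM, were close to the CTRL values, and the DKO over SMKO log2 fold change of 1.20 ± 0.31 did not pass (adjusted p = 0.3, and 0.0364 with low-count genes kept). Dnaja3, a mitochondrial co-chaperone, stood at 27.2, 5.14 and 13.8 CPM in SMKO, against 65.6, 41.7 and 52.0 CPM in CTRL, and shares exon regions with Vasn on its own strand and Coro7 on the other. Rnf214, a RING finger protein whose gene overlaps Bace1 and Pcsk7, stood at 17.0, 10.3 and 0 CPM in SMKO, against 35.0, 38.6 and 52.0 CPM in CTRL. Here too the 0 of SMKO 3 allows up to 41.4 CPM, which is above CTRL 1 and CTRL 2. For every gene named on the lower side the sign held in the fit without SMKO 2.

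Among lists with at least 5 tested members, the immediate early genes had the median log2 fold change furthest from 0. These genes are switched on within minutes by serum, growth factors or stretch, without new protein synthesis, and encode short-lived regulators of transcription and signalling. Of 16 genes in the list 13 were tested, and 11 had lower fitted levels in SMKO, against 49.6% of all tested genes; 7 of the 13 were lower at an unadjusted p under 0.05 and 1 was higher, against 2.89% and 2.59% of all genes. The median log2 fold change of the tested members was -0.93, and -0.85 without SMKO 2, beside 0.004 and -0.02 over all tested genes. None passed after adjustment over all genes. Summed levels were 1108, 1119 and 1422 CPM in SMKO, against 1237, 2192 and 2147 CPM in CTRL. CTRL 1 lay among the SMKO libraries, whereas CTRL 2 and CTRL 3 lay above all of them.

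Fos, a subunit of the transcription factor AP-1, had 6.81, 5.14 and 27.6 CPM in SMKO 1, 2 and 3, against 37.9, 104 and 29.7 CPM in CTRL 1, 2 and 3 (log2 fold change -2.87 ± 0.63, adjusted p = 0.246, -2.71 without SMKO 2). The groups did not overlap, yet SMKO 3, at 2 counts, lay just below CTRL 3. Nr4a1, an orphan nuclear receptor, had 66.4, 51.4 and 82.8 CPM in SMKO, against 96.2, 210.2 and 223 CPM in CTRL (-1.39 ± 0.37, adjusted p = 0.703). Junb, another AP-1 subunit, had 28.9, 41.1 and 0 CPM in SMKO, against 53.9, 91.2 and 59.4 CPM in CTRL (-1.27 ± 0.41, adjusted p = 0.779), and overlaps Prdx2 on the opposite strand. All 3 were separate between the groups. Egr1, a zinc finger factor, had 42.5, 82.2 and 124 CPM in SMKO, against 149, 422 and 260.0 CPM in CTRL, separate but wide in CTRL. Ier2, a nuclear regulator, had 25.5, 15.4 and 27.6 CPM in SMKO, against 51.0, 40.2 and 52.0 CPM in CTRL. Zfp36, which speeds the decay of messenger RNA, had 54.4, 66.8 and 110.4 CPM in SMKO, against 74.3, 161 and 141 CPM in CTRL. Btg2, which slows the cell cycle, had 49.3, 51.4 and 110.4 CPM in SMKO, against 67.0, 147 and 96.6 CPM in CTRL. Both overlapped between the groups. Ier3 went the other way, at 73.2, 144 and 96.6 CPM in SMKO, against 39.3, 66.5 and 89.2 CPM in CTRL, with overlap. The AP-1 subunits Jun and Jund overlapped too, with log2 fold changes of -0.18 and 0.02. When genes with low counts were kept in the fit, Fos, Nr4a1 and Egr1 did pass, with adjusted p values of 0.000247, 0.026 and 2.64e-05. DKO libraries had 22.7, 39.8 and 20.7 CPM of Fos and 59.0, 155 and 24.9 CPM of Egr1, and neither gene differed between DKO and SMKO at the threshold (adjusted p = 0.672 and 0.979).

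The promoters of Fos, Nr4a1 and Junb, the members of the list with the smallest p, are shown because the 3 genes were low in the same SMKO libraries. Each is the stretch of 250 bases before the RefSeq transcription start in build GRCm38.p6, at chr12:85473640-85473889 on the plus strand for Fos, chr15:101266596-101266845 on the plus strand for Nr4a1 and chr8:84978749-84978998 on the minus strand for Junb. Capitals mark every copy of TGACG, the core of the cyclic AMP response element (CRE), on either strand, so that CGTCA is the same motif read from the other strand.
Fos: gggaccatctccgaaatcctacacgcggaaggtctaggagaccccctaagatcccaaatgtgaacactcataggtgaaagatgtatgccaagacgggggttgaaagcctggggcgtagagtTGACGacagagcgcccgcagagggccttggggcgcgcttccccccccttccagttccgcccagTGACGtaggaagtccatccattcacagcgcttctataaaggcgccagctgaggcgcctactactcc
Nr4a1: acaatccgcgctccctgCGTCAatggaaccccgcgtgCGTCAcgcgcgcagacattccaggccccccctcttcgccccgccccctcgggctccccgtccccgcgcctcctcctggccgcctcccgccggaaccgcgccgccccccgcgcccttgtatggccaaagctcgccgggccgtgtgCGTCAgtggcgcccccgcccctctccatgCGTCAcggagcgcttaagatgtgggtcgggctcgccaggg
Junb: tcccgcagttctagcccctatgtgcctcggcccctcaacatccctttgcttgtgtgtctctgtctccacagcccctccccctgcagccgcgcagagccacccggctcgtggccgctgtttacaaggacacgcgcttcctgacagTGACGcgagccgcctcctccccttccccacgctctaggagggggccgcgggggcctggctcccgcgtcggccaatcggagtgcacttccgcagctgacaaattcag
This core stood 2 times before Fos, 4 times before Nr4a1 and 1 time before Junb, and 17.77% of 32851 mouse promoter windows of this length held it at least once. The full palindrome TGACGTCA, within which 2 copies of the core overlap, stood in none of the 3 windows and in 1.546% of all, and the CArG box of serum response factor in none of the 3 and in 1.467% of all. A match is a description of letters and not a bound site. Bases further upstream than 250 were not searched, so a motif missing from a window may still stand beyond it.

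Markers of macrophages leaned the other way. Resident macrophages live in the leaflet and are known there for the complement subunits C1q and for class II histocompatibility genes. Of 20 markers 16 were tested; 14 of these had higher fitted levels in SMKO, against 50.4% of all tested genes, 3 at an unadjusted p under 0.05 (C1qb, Cd74 and C1qa, against 2.59% of all), and none passed after adjustment. The median log2 fold change was 0.53, and 0.34 without SMKO 2. C1qb stood at 252, 318 and 235 CPM in SMKO, against 147, 179 and 134 CPM in CTRL (log2 fold change 0.79 ± 0.32, adjusted p = 0.874). C1qa stood at 129, 154 and 82.8 CPM in SMKO, against 67.0, 58.7 and 74.3 CPM in CTRL. Cd74, the chaperone of class II molecules, stood at 463, 288 and 331 CPM in SMKO, against 227, 243 and 215 CPM in CTRL. For all 3 genes the SMKO libraries lay above the CTRL libraries in CPM, and overlapped with them in TPM. C1qb, for example, had 463, 301 and 318 TPM in SMKO, against 317, 365 and 149 TPM in CTRL. Lyz2, which encodes lysozyme, was carried by 1 library, at 572, 2871 and 179 CPM in SMKO, against 291, 372 and 409 CPM in CTRL, and its log2 fold change of 1.79 was 0.23 without SMKO 2. Summed over the list, levels were 4340.0, 5957 and 2622 CPM in SMKO, against 2239.9, 2865 and 2979 CPM in CTRL, with SMKO 3 inside the CTRL range. Csf1r, the receptor on which macrophages depend, overlapped, at 260.3, 221 and 221 CPM in SMKO, against 165, 212 and 289.8 CPM in CTRL. Mrc1, a scavenger receptor of resident macrophages, also overlapped, at 44.2, 51.4 and 69.0 CPM in SMKO, against 51.0, 49.5 and 66.9 CPM in CTRL.

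**Figure D2:**
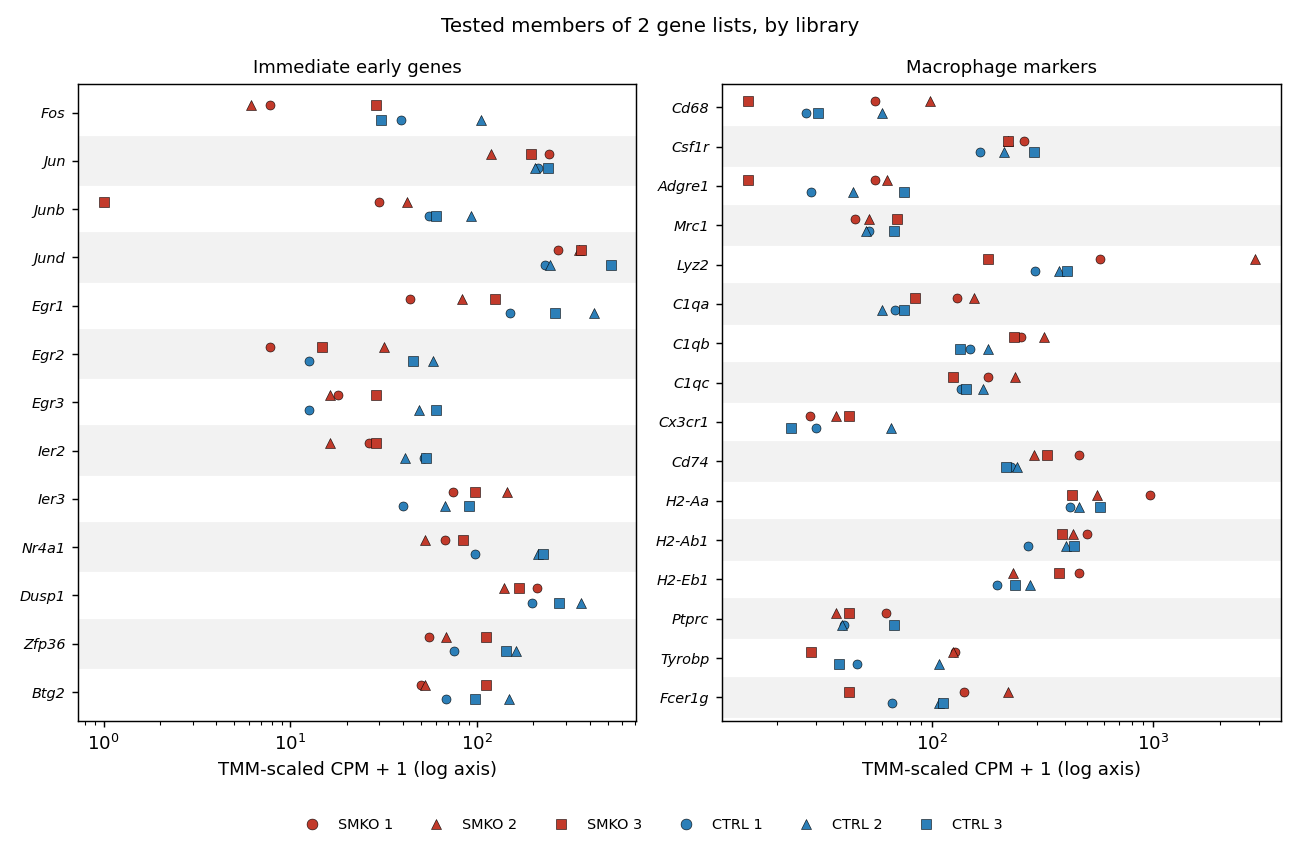
Levels of immediate early genes on the left and macrophage markers on the right; each point is 1 library, in TMM-scaled CPM plus 1 on a log axis, with SMKO in red above CTRL in blue. Fos, Nr4a1, Junb, Egr1 and Ier2 lie lower in all 3 SMKO libraries, and C1qb, C1qa and Cd74 lie higher, while most other genes shown overlap.

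Genes of the interferon response and antigen display were mostly on the higher side, and less so without SMKO 2. Of 16 genes 12 were tested; 11 had higher fitted levels in SMKO (50.4% of all tested genes did), 2 at an unadjusted p under 0.05 (Oasl2 and H2-K1; 2.59% of all), and the median log2 fold change was 0.53. Without SMKO 2, 8 of 12 were on the higher side and the median was 0.17. Oasl2, induced by interferon, stood at 39.1, 87.3 and 55.2 CPM in SMKO, against 21.9, 29.4 and 22.3 CPM in CTRL, separate between the groups, with a log2 fold change of 1.14 that was 0.74 without SMKO 2. H2-K1, the heavy chain of a class I molecule, stood at 729.9, 1089 and 579.7 CPM in SMKO, against 392, 581 and 527 CPM in CTRL. B2m, its light chain, stood at 2011, 5053 and 1422 CPM in SMKO, against 1349, 2595 and 1329.9 CPM in CTRL. Both overlapped, and SMKO 2 was the highest SMKO library for each. The log2 fold change of B2m was 0.69, and -0.02 without SMKO 2. Bst2, which tethers budding viruses, lay below all CTRL libraries, at 17.0, 20.5 and 0 CPM in SMKO, against 40.8, 29.4 and 44.6 CPM in CTRL. The 0 of SMKO 3 allows up to 41.4 CPM, which is above CTRL 1 and CTRL 2. Ccl19, a chemokine of fibroblastic stroma, stood at 109, 25.7 and 41.4 CPM in SMKO, against 294, 151 and 289.8 CPM in CTRL (log2 fold change -1.72 ± 0.50, adjusted p = 0.847), without overlap. With low-count genes kept in the fit, Ccl19 passed, with an adjusted p of 0.000134. Cxcl12, which guides leukocytes and stem cells, overlapped, at 192, 92.4 and 138 CPM in SMKO, against 331, 176 and 260.0 CPM in CTRL, and so did Il33, an alarm cytokine, at 157, 61.6 and 124 CPM in SMKO, against 55.4, 66.5 and 29.7 CPM in CTRL.

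The elastic fibre genes, which fibulin-4 serves, showed no difference that passed. Of 22 genes 19 were tested; 13 had higher fitted levels in SMKO (50.4% of all tested genes did), 3 at an unadjusted p under 0.05 (Loxl2, Eln and Fbln2, against 2.59% of all), and the median log2 fold change was 0.14, with 9 of 19 higher and a median of -0.01 without SMKO 2. Eln, which encodes tropoelastin itself, stood at 174, 421 and 193 CPM in SMKO 1, 2 and 3, against 175, 136 and 178 CPM in CTRL 1, 2 and 3 (log2 fold change 0.71 ± 0.31, adjusted p = 0.885, 0.17 without SMKO 2). Loxl2, a cross-linking oxidase, stood at 218, 585 and 207 CPM in SMKO, against 185, 212 and 215 CPM in CTRL. In both, SMKO 1 and SMKO 3 lay near the CTRL values and SMKO 2 stood far above them. The log2 fold change of Loxl2 was 0.75, and 0.09 without SMKO 2. Lox, the oxidase that fibulin-4 binds, was scarce, at 11.9, 51.4 and 0 CPM in SMKO, against 33.5, 21.6 and 14.9 CPM in CTRL (-0.27, -1.29 without SMKO 2), and Loxl1 had 239.9, 329 and 248 CPM in SMKO, against 297, 190.1 and 319 CPM in CTRL. Fbn1, the main fibrillin, stood at 170.1, 678 and 221 CPM in SMKO, against 373, 235 and 267 CPM in CTRL, and its log2 fold change of 0.29 was -0.65 without SMKO 2.

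The paralogues of fibulin-4 gave values on both sides. Fbln5, the other fibulin needed for elastic fibres, stood at 628, 1104 and 345 CPM in SMKO, against 899, 818 and 468 CPM in CTRL. Efemp1, also called fibulin-3, stood at 107, 20.5 and 55.2 CPM in SMKO, against 72.9, 61.8 and 59.4 CPM in CTRL. Fbln1 stood at 987, 452 and 538 CPM in SMKO, against 902, 785 and 1003 CPM in CTRL, and Fbln2 at 209, 380.0 and 152 CPM in SMKO, against 163, 162 and 193 CPM in CTRL. Every one of the 4 overlapped between the groups. The log2 fold changes with and without SMKO 2 were -0.06 and -0.54 for Fbln5, 0.14 and 0.53 for Efemp1, and 0.58 and 0.18 for Fbln2. Among the latent TGF-beta binding proteins, Ltbp3 was separate, at 294, 426 and 345 CPM in SMKO, against 224, 292 and 238 CPM in CTRL (log2 fold change 0.48 ± 0.26, adjusted p = 0.886), and Ltbp4, the partner of fibulin-4 in elastic fibre assembly, overlapped, at 3273, 3749 and 3106 CPM in SMKO, against 2099, 2689 and 4034 CPM in CTRL. Per unit of transcript length, in the authors' deposited TPM, CTRL leaflets held 347, 298 and 93.6 TPM of Fbln5, 106, 78.1 and 56.1 TPM of Eln and 59.4, 23.6 and 24.4 TPM of Efemp2, so fibulin-4 was the least abundant of these 3 in each CTRL library.

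Collagens and their assembly factors repeated the pattern of Eln. Of 28 genes 26 were tested. Among these, 24 had higher fitted levels in SMKO (50.4% of all tested genes did), with a median log2 fold change of 0.36. Without SMKO 2, 16 of 26 did, with a median of 0.05. Of the 26, 3 were higher at an unadjusted p under 0.05 (Sparc, P4ha1 and Bmp1), against 2.59% of all tested genes. The list summed to 13355, 35089 and 12739.7 CPM in SMKO, against 12835, 10355 and 14176 CPM in CTRL. Sparc, a collagen-binding glycoprotein, stood at 2731, 15775 and 2567 CPM in SMKO, against 2198, 1943 and 3158 CPM in CTRL, and its log2 fold change of 1.53 ± 0.53 was 0.13 without SMKO 2. Col1a1, a chain of type I collagen, had 1402, 3810.3 and 1642 CPM in SMKO, against 1688, 981 and 2095 CPM in CTRL, and its sign turned without SMKO 2 (0.53 with, -0.06 without). P4ha1 and Bmp1 did not rest on that library. P4ha1, a subunit of the prolyl hydroxylase that stabilises the triple helix, stood at 69.8, 87.3 and 110.4 CPM in SMKO, against 40.8, 32.5 and 74.3 CPM in CTRL (0.94 ± 0.35, 0.90 without SMKO 2, adjusted p = 0.874). Bmp1, the protease that trims procollagen, stood at 229.7, 293 and 497 CPM in SMKO, against 137, 147 and 342 CPM in CTRL (0.72 ± 0.33, 0.79 without SMKO 2). For both, the upper CTRL value came from CTRL 3, which lay inside the SMKO range. Fmod, a small proteoglycan that binds collagen fibrils, was higher in every SMKO library, at 905, 950.0 and 1021 CPM, against 616, 663 and 617 CPM in CTRL (0.60 ± 0.30, adjusted p = 0.886).

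The other matrix groups gave mixed values. For comparison, 50.4% of all tested genes lay on the higher side in the fit with SMKO 2. Basement membrane genes had 9 of 13 tested members on the higher side with and without SMKO 2, with medians of 0.24 and 0.11. Col4a1 was separate, at 196, 483 and 221 CPM in SMKO, against 189, 149.9 and 171 CPM in CTRL (log2 fold change 0.82 ± 0.29, 0.27 without SMKO 2, adjusted p = 0.874), and shares exon regions with Col4a2 on the opposite strand. Proteases and inhibitors had 14 of 17 on the higher side, but 6 of 17 without SMKO 2, and matricellular proteins 8 of 14, and 6 of 14 without it. Adamts5, which cleaves versican and aggrecan, lay lower in all 3 SMKO libraries, at 42.5, 41.1 and 41.4 CPM in SMKO, against 72.9, 68.0 and 149 CPM in CTRL (-1.01 ± 0.38, adjusted p = 0.874). Hapln1, which links versican to hyaluronan, stood at 95.3, 35.9 and 0 CPM in SMKO, against 93.3, 142 and 171 CPM in CTRL (-1.02 ± 0.39, adjusted p = 0.874), with SMKO 1 just inside the CTRL range. Thbs1, a matricellular protein of the injury response, stood at 1922, 4904 and 1366 CPM in SMKO, against 3245, 3847 and 3945 CPM in CTRL. Ccn1, another, stood at 59.5, 267 and 138 CPM in SMKO, against 149, 385 and 193 CPM in CTRL. In both, SMKO 1 and 3 lay below every CTRL library and SMKO 2 did not. The log2 fold change of Thbs1 was -0.42, and -1.15 without SMKO 2, and that of Ccn1 was -0.77, and -1.67 without it. Spp1, osteopontin, stood at 13.6, 1089 and 193 CPM in SMKO, against 103, 47.9 and 81.7 CPM in CTRL, and its log2 fold change of 2.48 became -0.56 without SMKO 2.

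Signalling lists held few members near a call. In the TGF-beta list 0 of 13 tested genes had an unadjusted p under 0.05, against 5.48% of all tested genes. With 13 genes that share leaves few to be expected. The median log2 fold change was -0.02. In the BMP list 9 of 13 had lower fitted levels (49.6% of all tested genes did), 2 of them at an unadjusted p under 0.05 (2.89% of all). These were Id4, a dominant-negative partner of helix-loop-helix factors, at 180.3, 128 and 193 CPM in SMKO, against 261, 255 and 319 CPM in CTRL, and Smad6, an inhibitory SMAD, at 88.5, 97.6 and 41.4 CPM in SMKO, against 106, 184 and 119 CPM in CTRL. Both were separate between the groups, with adjusted p values of 0.885 and 0.885. In the Notch list 7 of 9 had lower fitted levels (49.6% of all tested genes did), 2 at an unadjusted p under 0.05 (2.89% of all). The median was -0.39, and -0.50 without SMKO 2. The target gene Hey1 stood at 35.7, 5.14 and 27.6 CPM in SMKO, against 56.8, 52.5 and 44.6 CPM in CTRL, and Notch3, the receptor typical of mural cells, at 25.5, 0 and 13.8 CPM in SMKO, against 37.9, 34.0 and 37.1 CPM in CTRL. Both were separate, lowest in SMKO 2, and did not pass (adjusted p = 0.885 and 0.886). Without SMKO 2 the log2 fold change of Hey1 was -0.61, against -1.01 with it, and that of Notch3 -0.60, against -1.05. Notch1, the receptor of valve endothelium, overlapped, at 146, 103 and 276 CPM in SMKO, against 127, 138 and 141 CPM in CTRL.

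In the Wnt list, beside Wnt9b, the feedback target Axin2 stood at 47.6, 41.1 and 110.4 CPM in SMKO, against 108, 141 and 52.0 CPM in CTRL (log2 fold change -1.01 ± 0.34, adjusted p = 0.874). SMKO 3 and CTRL 3 crossed, so the groups overlapped. Tead1, the DNA-binding partner of YAP, lay lower in all 3 SMKO libraries, at 42.5, 35.9 and 55.2 CPM in SMKO, against 70.0, 64.9 and 104 CPM in CTRL. Klf2, the flow-induced factor of endothelium, overlapped, at 463, 827 and 607 CPM in SMKO, against 360.0, 510.0 and 654 CPM in CTRL. Sox9, a chondrogenic factor that valve interstitial cells also use, stood at 168, 231 and 110.4 CPM in SMKO, against 289, 363 and 193 CPM in CTRL (-0.71 ± 0.27, -0.93 without SMKO 2, adjusted p = 0.874). Mgp, the matrix inhibitor of calcification and the most abundant nuclear transcript of CTRL leaflets in TPM, stood at 9959, 68108 and 11815 CPM in SMKO, against 9623, 11176 and 15743 CPM in CTRL. SMKO 1 and SMKO 3 lay inside the CTRL range, and the log2 fold change of 1.30 became -0.16 without SMKO 2. In the list of the unfolded protein response 11 of 16 had lower fitted levels (49.6% of all tested genes did), and 13 of 16 without SMKO 2. Its member Hyou1, a chaperone of the endoplasmic reticulum, stood at 13.6, 25.7 and 0 CPM in SMKO, against 56.8, 24.7 and 14.9 CPM in CTRL, with overlap. Pdia6, a disulfide isomerase whose gene overlaps Atp6v1c2, stood at 85.1, 123 and 82.8 CPM in SMKO, against 144, 138 and 134 CPM in CTRL, without overlap.

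**Figure D3:**
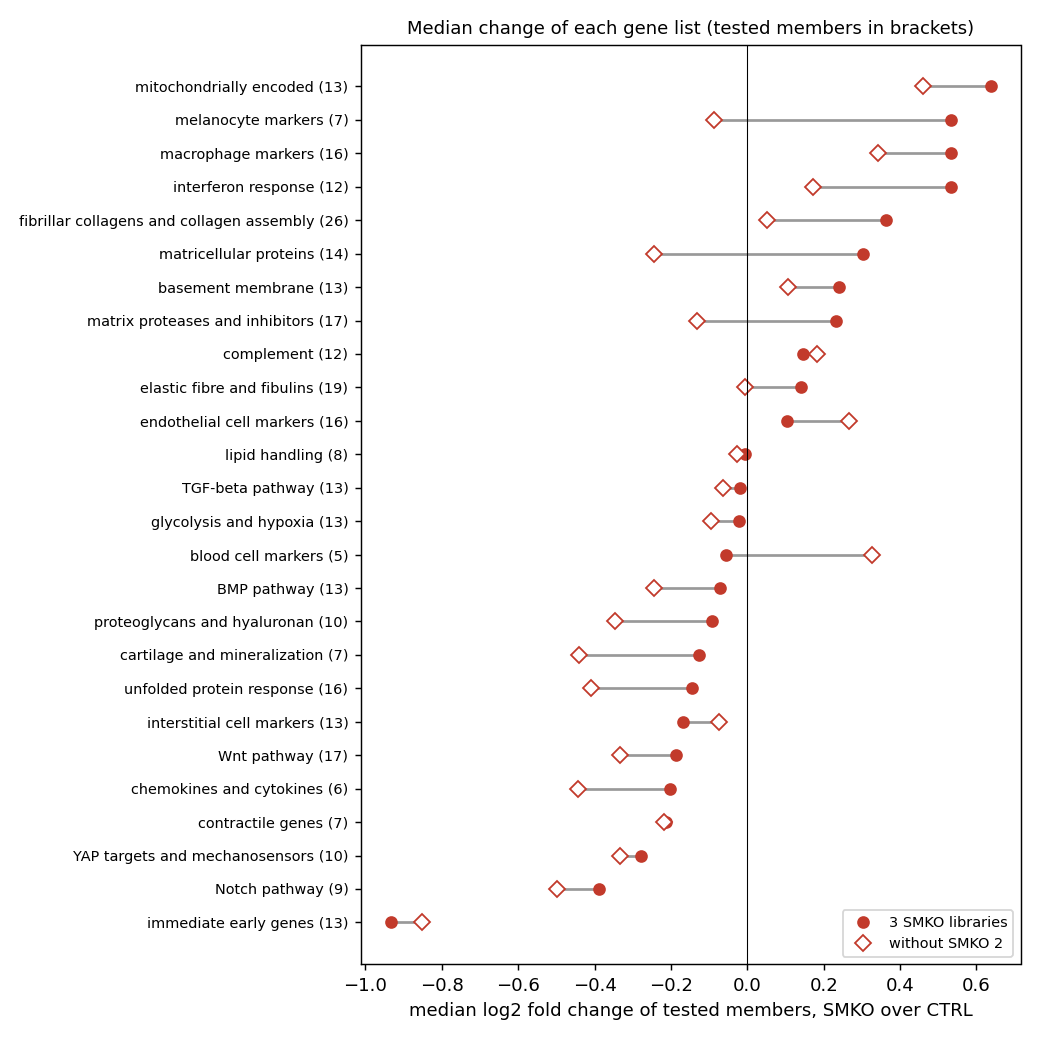
Median log2 fold change, SMKO over CTRL, of the tested members of each gene list (number tested in brackets), from the fit with 3 SMKO libraries as filled circles and without SMKO 2 as open diamonds. The immediate early list stays near -0.93 and -0.85 in the 2 fits, while collagens, proteases, matricellular proteins and interferon genes move towards or past 0 without SMKO 2.

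Markers of cell types other than interstitial and endothelial cells varied widely between single libraries. Contractile genes had 7 of 15 members tested and 0 at an unadjusted p under 0.05, against 5.48% of all tested genes. Melanocyte markers summed to 837, 1438 and 373 CPM in SMKO, against 510.1, 1032 and 327 CPM in CTRL, blood cell markers to 2322, 642 and 497 CPM in SMKO, against 673, 269 and 3492 CPM in CTRL, and cardiomyocyte markers to 40.8, 123 and 110.4 CPM in SMKO, against 30.6, 68.0 and 104 CPM in CTRL. All 3 sums overlapped between the groups. Lymphocyte markers were near 0, at 10.2, 5.14 and 0 CPM in SMKO, against 13.1, 6.18 and 29.7 CPM in CTRL, and none was tested. Of the 16 tested endothelial markers, 2 were higher at an unadjusted p under 0.05 (2.59% of all tested genes were). These were Pecam1, an adhesion molecule, at 311, 431 and 359 CPM in SMKO, against 173, 218 and 319 CPM in CTRL, and the receptor Tie1, at 93.6, 71.9 and 235 CPM in SMKO, against 59.8, 52.5 and 89.2 CPM in CTRL. Cdh5, the cadherin that defines endothelium, stood at 104, 92.4 and 55.2 CPM in SMKO, against 153, 105 and 81.7 CPM in CTRL, on the other side and overlapping. All 13 tested mitochondrial transcripts had higher fitted levels in SMKO (50.4% of all tested genes did), with a median log2 fold change of 0.64. Without SMKO 2 the median was 0.46. The mitochondrial share of counts overlapped between the groups, at 15.1, 24.1 and 28.5% in SMKO, against 10.5, 11.2 and 26.7% in CTRL. The part that cell mixture and mitochondrial share play in the gene values above was not tested.

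Within the SMKO group, chi-square per degree of freedom over genes was 9.64 between SMKO 1 and 2, 5.23 between SMKO 2 and 3, and 3.81 between SMKO 1 and 3. In CTRL it was 2.80 between CTRL 1 and 2, 9.15 between CTRL 1 and 3, and 8.39 between CTRL 2 and 3. Values this high are thus not particular to pairs with SMKO 2. The statistic was computed on counts and grows with depth, so it cannot rank pairs of unequal depth. The genes with the widest gaps between SMKO 2 and both other SMKO libraries are given as a description, since they were ranked by that gap. Col8a1, a short-chain collagen of remodelling vessels and valves, had 23.8, 344 and 13.8 CPM in SMKO 1, 2 and 3, against 27.7, 44.8 and 74.3 CPM in CTRL. Timp1, an inhibitor of metalloproteinases, had 66.4, 452 and 55.2 CPM in SMKO, against 94.7, 83.5 and 141 CPM in CTRL, and Serpine2, an inhibitor of thrombin and plasminogen activators, had 78.3, 698 and 110.4 CPM in SMKO, against 131, 153 and 119 CPM in CTRL. In each, SMKO 1 and SMKO 3 lay below every CTRL library and SMKO 2 stood above every one. Bmp2, Ly6a, Lgals3, Sparc and Mgp were other genes in which SMKO 2 stood highest. Of these, Ly6a, a surface antigen of progenitor and stromal cells, had 276, 1987 and 124 CPM in SMKO, against 172, 223 and 267 CPM in CTRL. In the other direction, Igf2, a fetal growth factor, had 607, 15.4 and 704 CPM in SMKO, against 386, 218 and 498 CPM in CTRL, and shares exons with the model Gm49394. Igfbp5, an IGF-binding protein, had 808, 97.6 and 1049 CPM in SMKO, against 1154, 1168 and 1263 CPM in CTRL. Enpp2, which makes lysophosphatidic acid, had 366, 41.1 and 386 CPM in SMKO, against 380.4, 337 and 230.3 CPM in CTRL. Igfbp3, Aspn, Smtnl2, Cntfr, Tnxb, Adnp and the Pakap_3 model were the other low genes, and of these Adnp also had no count in CTRL 1. Without SMKO 2 the log2 fold changes over CTRL were -0.87 for Col8a1, -0.62 for Timp1, -0.66 for Serpine2, 0.04 for Ly6a, 0.86 for Igf2, -0.37 for Igfbp5 and 0.21 for Enpp2.

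**Figure D4:**
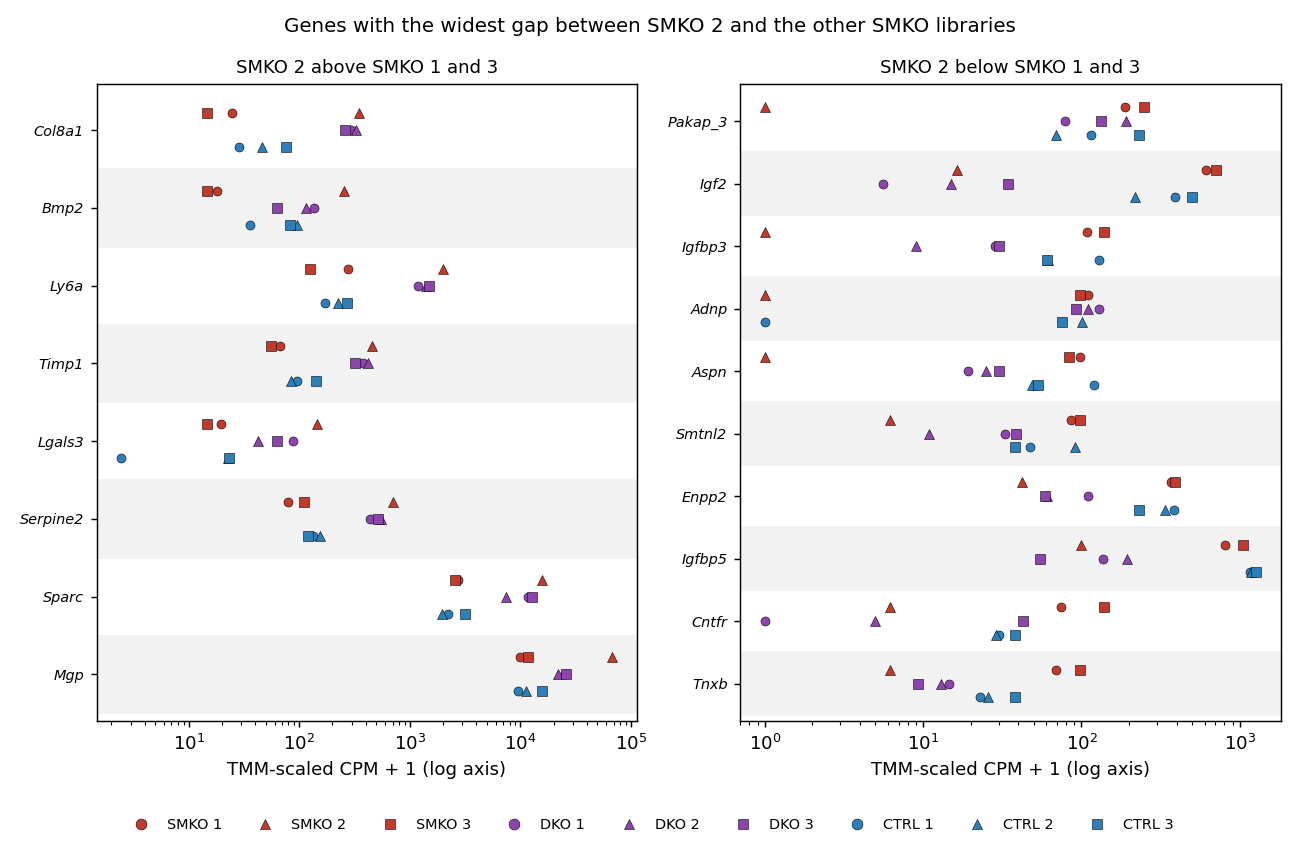
Levels of genes among the 10 in which SMKO 2 lies furthest above SMKO 1 and 3 (left) and furthest below them (right); each point is 1 library, in TMM-scaled CPM plus 1 on a log axis, with SMKO, DKO and CTRL from top to bottom for each gene. For most genes SMKO 2 sits among or near the DKO points, and SMKO 1 and 3 among the CTRL points.

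Setting DKO against SMKO compared the genotypes that share the smooth muscle deletion. With all libraries 0 of 6296 genes passed edgeR's test (0%), 396 had an unadjusted p under 0.05 (6.29%), DESeq2 called 3, and limma-voom called 0 without and 54 with library weights. Without SMKO 2 the same fit listed 110 genes (1.75%), 64 higher in DKO (1.02%) and 46 lower (0.731%), whereas it listed 0 without SMKO 1 or without SMKO 3. SMKO 2 was singled out because it lies near DKO, so leaving it out widens the distance between the groups by that choice. The 110 genes passed the threshold in that fit, but after this choice they cannot serve to test a difference between the genotypes. They are given as a description of SMKO 1 and 3 beside DKO. SMKO 2 lay nearer to the DKO mean than to the mean of SMKO 1 and 3 in 103 of the 110, within the range of the 3 DKO libraries in 41, and nearer to SMKO 1 and 3 in the other 7.

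The genes named next from that list were chosen after their values were seen. Col8a1 had 295, 323 and 261 CPM in DKO, against 23.8, 344 and 13.8 CPM in SMKO 1, 2 and 3. SMKO 2 lay above every DKO library, and SMKO 1 and 3 far below them. Ccn2, a matricellular protein induced by TGF-beta and by stretch, had 3632, 2953 and 2521 CPM in DKO, against 664, 1802 and 566 CPM in SMKO. Here SMKO 2 stood between the 2 other SMKO libraries and DKO. Ltbp2, a latent TGF-beta binding protein, had 545, 824 and 858 CPM in DKO, against 242, 616 and 221 CPM in SMKO, with SMKO 2 inside the DKO range. Igf2 had 4.54, 13.9 and 33.2 CPM in DKO, against 607, 15.4 and 704 CPM in SMKO, and Myoc, which encodes myocilin, had 22.7, 37.8 and 29.0 CPM in DKO, against 265, 51.4 and 235 CPM in SMKO. SMKO 2 lay inside the DKO range for Igf2 and between DKO and the other SMKO libraries for Myoc. Igf2, Myoc and Ccn2 were also the 3 genes that DESeq2 called with all libraries. Y-linked counts were 0, 0 and 28 in DKO 1, 2 and 3, against 89, 1 and 0 in SMKO, and the mitochondrial share was 20.7, 10.5 and 20.98% in DKO, against 15.1, 24.1 and 28.5% in SMKO. Their part in these values was not tested.

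A view of the same library from CTRL used the 31 genes called between DKO and CTRL (0.492% of those tested), 18 higher and 13 lower in DKO. Each SMKO library was placed on the scale from the CTRL mean to the DKO mean of log2 CPM. SMKO 2 lay nearer the DKO mean in 24 of the 31 genes, SMKO 1 in 4 and SMKO 3 in 10. The median position, with CTRL at 0 and DKO at 1, was 0.25, 0.76 and 0.33 in SMKO 1, 2 and 3. ECKO libraries had medians of 0.25, 0.18 and 0.18. The genes were chosen for the distance between CTRL and DKO, so the positions describe the single libraries and test nothing about SMKO. Efemp2 is 1 of the 31, as are Wnt9b, Trpv4, Cst6, Col4a1, Eln and Ltbp2. In Efemp2, Wnt9b, Trpv4, Cst6 and Col4a1 SMKO 2 reached or passed the DKO mean. In Efemp2 SMKO 3 reached it too, and neither of these 2 libraries had a count of that gene.

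**Figure D5:**
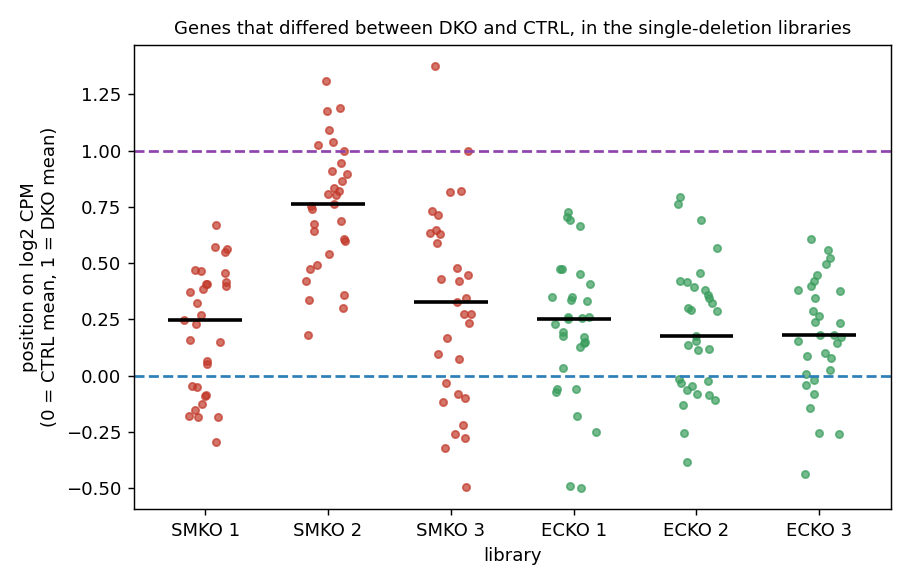
Position of each single-deletion library on the scale from the CTRL mean (0) to the DKO mean (1) of log2 CPM, for the 31 genes called between DKO and CTRL; points are genes and black bars medians. SMKO 2 has a median of 0.76, and the other 5 libraries have medians from 0.18 to 0.33.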

How the data were processed

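Aortic valve leaflets were profiled in 12 libraries, 3 for each of 4 genotype codes. The authors deposited 1 table of 41709 genes, which holds whole-number counts per gene and library, per the file headers, and TPM that the authors scaled within each library. The submitters' processing notes name the build GRCm39. Alignment and counting were done with a program, strand setting and annotation not given in the sources used here. Library totals ran from 74827 to 615665 counts (median 321311.5). Of 16588 genes with a count, edgeR's filterByExpr, set to a minimum count of 10 with groups of 3, kept 6296, which held 93.1% of counts. Low depth makes values of a few counts uncertain, and 95% intervals and limits of 3 counts cover counting error only, since reads without molecular identifiers are not independent molecules.

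TMM factors were computed and the test run in edgeR 4.0.16 (quasi-likelihood F test, robust, R 4.3.3) in 1 model of all 12 libraries with a mean per group (8 residual degrees of freedom, common biological coefficient of variation 0.246). P-values were adjusted over all tested genes by Benjamini-Hochberg, adjusted p-values come from edgeR where no other tool is given, and a call is an adjusted p under 0.05. Replicates of each group differed beyond sampling noise, so all were kept. DESeq2 1.42.0 and limma 3.58.1 were alternatives. Same-numbered SMKO and CTRL libraries were taken as unpaired, since the labels tie the numbers to no animal, litter or day. Fits without 1 library keep the same 6296 genes. Overlap of groups was read in TMM-scaled CPM and, in addition, in the deposited TPM. Log2 CPM used for correlations and positions has a prior count of 2. The tests were checked on simulated counts.

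Named genes are Efemp2, the 12 genes with the smallest p in each direction, up to 3 members of each of 31 lists by smallest p and up to 3 by highest level, and the 10 genes with the widest gap of SMKO 2 above and below SMKO 1 and 3 (at least 30 counts over the 3 libraries). Other members of a list that are named, and the genes from the fit without SMKO 2, were chosen after their values were seen. The members and lists were chosen with earlier results of these data known. Exon overlaps were read from an older mouse annotation and touch 23 of 172 named genes, and promoters from RefSeq (GRCm38.p6), in which all 3 genes looked up were found. The authors' own fold changes and p-values were not used. A few genes that meet these rules are not reported here.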

Additional observations from a re-analysis of the deposited data

How the results depend on the processing

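The 116 tested genes with described SMKO and CTRL values were recomputed under up to 18 alternatives, and 90 kept their direction without a call under all of them. The smallest adjusted p among the fits that turned a sign was 0.651. Signs turned under limma-voom with library weights (Spp1 -1.10, Col8a1 -0.28, Timp1 -0.16, Serpine2 -0.18, Igf2 -0.090, Fbn1 -0.33 and Loxl1 -0.041), with log10 library total as a covariate (Fbln5 0.072, Jund -0.18 and Loxl1 -0.088), without the 2 libraries under 200000 counts (Fbln5 0.0051 and Notch1 -0.024), without the low-count filter (Jund -0.030 and Loxl1 -0.0074), under limma-voom (Igf2 -0.98), and with a term for Y-linked counts (Efemp1 -0.22 and Lox 0.14). Leaving out 1 library at a time turned the sign of 21 genes, whose log2 fold changes then ran over these ranges: Col4a2 -0.13 to 1.64, Bgn -0.052 to 0.96, Spp1 -0.56 to 3.13, Mgp -0.16 to 1.72, Col1a1 -0.058 to 0.79, Fbln5 -0.54 to 0.23, Notch1 -0.052 to 0.46, Jund -0.20 to 0.44, Jun -0.56 to 0.079, B2m -0.023 to 1.08, Col8a1 -0.87 to 2.37, Timp1 -0.62 to 1.53, Serpine2 -0.66 to 1.69, Igf2 -0.24 to 0.86, Enpp2 -0.90 to 0.21, Csf1r -0.042 to 0.34, Efemp1 -1.09 to 0.53, Fbn1 -0.65 to 0.69, Lox -1.29 to 0.45, Loxl1 -0.17 to 0.16 and Mrc1 -0.17 to 0.11. Among these fits Spp1, Mgp, Col1a1, Col4a2, Bgn, Fbn1, Col8a1, Timp1, Serpine2, B2m, Jun and Enpp2 turned only without SMKO 2. The cause was not tested.

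Without the low-count filter 8 genes passed in SMKO against CTRL, 2 higher (Arfgap2 among them) and 6 lower (Efemp2 at -3.70, Fos, Nr4a1, Egr1, Ccl19 and Alg1), at 30 to 460 counts over the 6 libraries. Leaving out 1 library gave 0 to 1 calls, the 1 being Efemp2 without CTRL 2 (-4.03, adjusted p = 0.0325), and Efemp2 ran from -7.50 to -3.28, where the value of -7.50 has no SMKO count left and is no bound. A filter at 30 counts removed Efemp2. In DKO against SMKO, DESeq2 called 3 genes (Myoc, Igf2 and Ccn2), limma-voom with library weights 54, the fit without the low-count filter 32, and leaving out 1 library 0 to 110 (the 110 without SMKO 2, which was singled out for its nearness to DKO, and 0 for each other library). Size factors, mitochondrial genes, depth, Y-linked counts and a fit of the 2 groups alone changed no count of calls.

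With the replicate number as a block, 0 genes passed in either comparison (375 and 464 at an unadjusted p under 0.05), and Efemp2 stood at -3.82 (adjusted p = 0.0505). Deviations from group means correlated at 0.18, 0.08 and 0.14 between SMKO and CTRL libraries of the same number, and each SMKO library correlated best with its own number, a hint from the data and not from the design. Number and depth ran together: SMKO 1 and CTRL 1 were the deepest of their groups, and SMKO 3 and CTRL 3 the shallowest. The part of depth in these correlations was not tested. Leaving out the 2 libraries under 200000 counts together (SMKO 3 and CTRL 3), an alternative chosen after seeing the data, gave 0 calls and 398 genes at an unadjusted p under 0.05. Depth is a limit throughout: the median tested gene had 19.8 counts per library, averaged over the 12. Genes whose SMKO and CTRL libraries did not overlap numbered 659 in TMM-scaled CPM and 373 in the deposited TPM, a scale added after seeing the data.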
